A study of Caenorhabditis briggsae with 13 samples.

Results

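The transcripts described here were abundant in 4-cell embryos of the nematode Caenorhabditis briggsae and stood at least 16-fold lower at both 28 and 190 cells. They numbered 124 of the 19528 genes on the array. The samples were staged embryos of strain AF16 with 4 cells (the starting point, 0 min), 28 cells (55 min later), 55 cells (80 min), 95 cells (120 min) and 190 cells (160 min). There were 2, 3, 3, 2 and 3 one-colour arrays of these stages, and each array measured amplified RNA from 50 pooled embryos. All embryos were of 1 strain, and the RNA of all cells of an embryo was mixed. Scan date varied along with stage in part: both 4-cell arrays were of the first of 2 dates, and 55-cell C, 95-cell B and 190-cell C of the second.

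A newly fertilised nematode egg carries messenger RNAs that were made in the mother's germ line. In C. elegans these maternal messages direct the first cleavages and the placing of the early cell fates. Transcription from the embryo's own genome begins while cleavage is under way, and different maternal messages are removed at different times. The clearing of such messages is part of the maternal-to-zygotic transition known from many animals. Work in C. elegans has tied the stability and translation of maternal messages to RNA-binding proteins that recognise their 3′ untranslated regions and to enzymes that shorten the poly(A) tail.

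Members were chosen from measured values. A level was the log2 intensity of a probe minus the 75th percentile of its array, averaged over a gene's probes and then over the arrays of a stage. A level of 2 is therefore 4 times the array's 75th percentile in intensity. The 3 conditions were a 4-cell level of at least 2, a 28-cell level at least 4 log2 units (16-fold) below it and a 190-cell level at least 4 log2 units below it. Levels at 4, 28 and 190 cells are given as a description without a test, because they chose the members. The first condition was met by 2908 genes, and 146 of these had fallen 16-fold by 28 cells. The other 22 of the 146 were less than 16-fold below their 4-cell level at 190 cells and were not members.

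The thresholds ran through a continuous range of values. The members nearest the 28-cell threshold had log2 changes of -4.0005 and -4.008, and the nearest genes outside it -3.9988 and -3.9988. At the 4-cell threshold the nearest members had levels of 2.012 and 2.095, and the nearest genes outside 1.85 and 1.84. At the 190-cell threshold the nearest members had changes of -4.02 and -4.06, and the nearest genes outside -3.99 and -3.98. Membership also depended on how arrays were scaled to each other, since the level is relative within an array. The same rule gave 236 genes with arrays centred on the median gene and 16 with scaling on probes detected on all arrays. Spike-in scaling gave 42 and normexp background correction 53, both without 28-cell C, whose scanner output was not used. Leaving out that array alone gave 122.

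The files name genes by WBGene number. None of these numbers was found in the RefSeq gene table of this species (0 of 19528), so symbols, products and positions were not used here. The maternal origin of the transcripts could therefore not be checked against known maternal genes. Transcripts made before the 4-cell stage in the embryo itself cannot be told apart from those of the mother.

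The first question was how much of each transcript remained. At 4 cells the members had levels between 2.01 and 7.10, with a median of 4.07. Their median level was -0.36 at the 28-cell stage and -1.39 at the 55-cell stage. It then reached -1.85 (95-cell) and -2.31 (190-cell). By single arrays, the median was 4.10 and 4.07 at 4 cells. It was -0.46, -0.23 and -0.36 at 28 cells, and -1.34, -1.28 and -1.53 at 55 cells. At 95 cells it was -1.74 and -1.95, and at 190 cells -2.39, -1.90 and -2.67. The array medians of the 4-, 28- and 55-cell stages lay apart from those of every other stage. The highest 190-cell array lay between both 95-cell arrays.

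**Figure D1:**
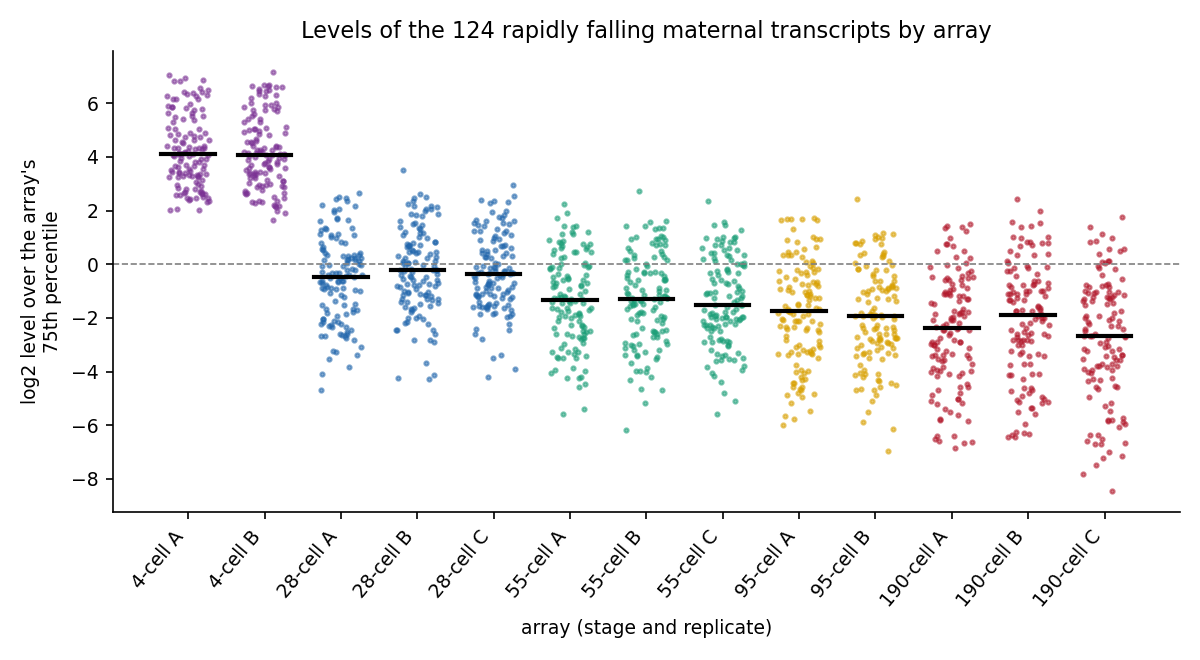
Log2 level over the array's 75th percentile (y axis, dashed line at 0) of each of the 124 transcripts (points) on each of the 13 arrays (x axis, in developmental order), with the median as a black bar. Medians are 4.10 and 4.07 at 4 cells and between -0.46 and -0.23 at 28 cells, and they reach -2.67 on 190-cell C.

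Most of the transcripts were reduced rather than gone at 28 cells. The median member had 4.82% of its 4-cell level at 28 cells, and the range was 0.550% to 6.25%. Only 4 members stood at or under 1% at that stage. Every member (124 of 124) had at least 1 probe that passed the scanner's background test on both 28-cell arrays with detection flags, and for 110 members every probe was. 51 members were still above the 75th percentile of the array at 28 cells. They cannot be called lost by 28 cells from these data and are called rapidly falling transcripts here.

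The level went on falling after 28 cells for most members. Of its 4-cell level, the median member had 2.21% by 55 cells and 1.55% by 95 cells, and 1.18% in the last stage. By the last stage 53 members stood at or under 1%. At 190 cells 114 members still had a probe above background on all 3 arrays, and 16 were above the array's 75th percentile. A single member had no probe above background on any 190-cell array, and its 4-cell mean was at least 340-fold above the 190-cell bound. Its measured means were -7.08 at 190 cells and 2.69 at 4 cells. Without 190-cell C, the array of that stage with the most probes above background (67.9%), 6 members had no such probe.

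**Figure D2:**
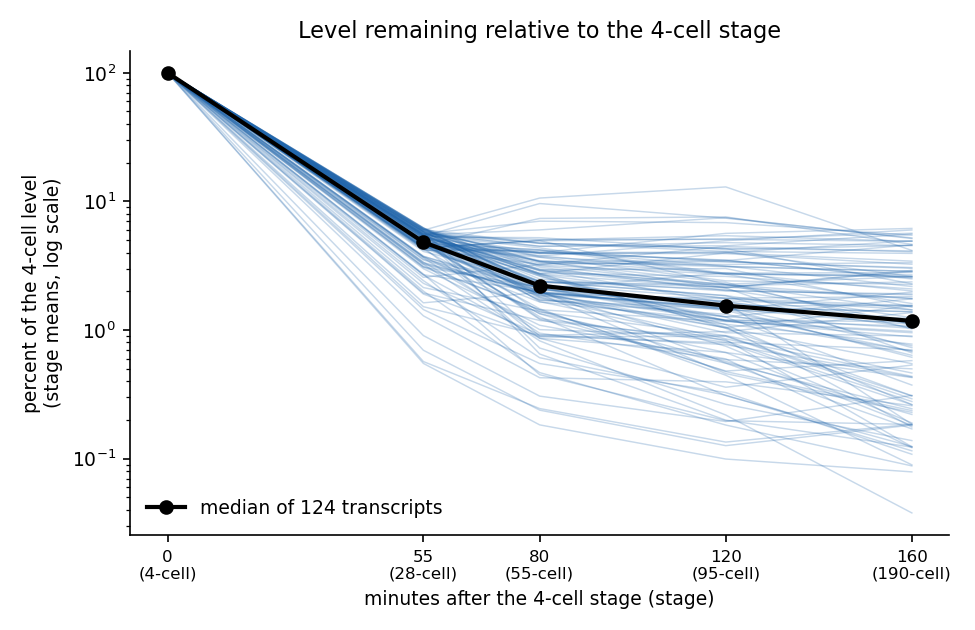
Level of each of the 124 transcripts (thin lines) as a percentage of its own 4-cell level (y axis, log scale) against minutes after the 4-cell stage (x axis), from stage means. The black median line passes 4.82% at 55 min and 1.18% at 160 min, and single transcripts spread from 0.0379% to 6.17% at 160 min.

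The pace of the fall differed between intervals. Per 10 min, the median log2 change of members was -0.80 between 4 and 28 cells, -0.41 between 28 and 55 cells, -0.11 between 55 and 95 cells and -0.093 between 95 and 190 cells. The first of these was fixed to be steep by the choice of members. Over the same intervals the median tested gene moved by -0.082, -0.046, -0.039 and 0.0053 per 10 min. These values average all probes of a gene. From 4 to 28 cells the median tested gene changed by -0.45 log2 units on that basis, and by -0.18 over the probes kept for the test. The level was lower at 55 than at 28 cells in 114 of 124 members, where 56.6% of the 13443 tested genes were lower. It was lower at 190 than at 95 cells in 100 members (80.6%), against 48.3% of tested genes. Both steps share arrays with the rule and have no test here.

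After 28 cells members took different courses. From 28 to 190 cells, 19 members fell at least 16-fold further, 36 fell 4- to 16-fold and 63 fell by less than 4-fold. Another 6 were higher at 190 than at 28 cells, by at most 0.66 log2 units. A decline at all 4 steps was seen in 83 members. The first step was fixed by the choice of members, and no share of all genes was computed for this count. Of the 10 members higher at 55 than at 28 cells, the one that kept the most stood at 10.6% of its 4-cell level at 55 cells and 12.96% at 95 cells.

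**Figure D3:**
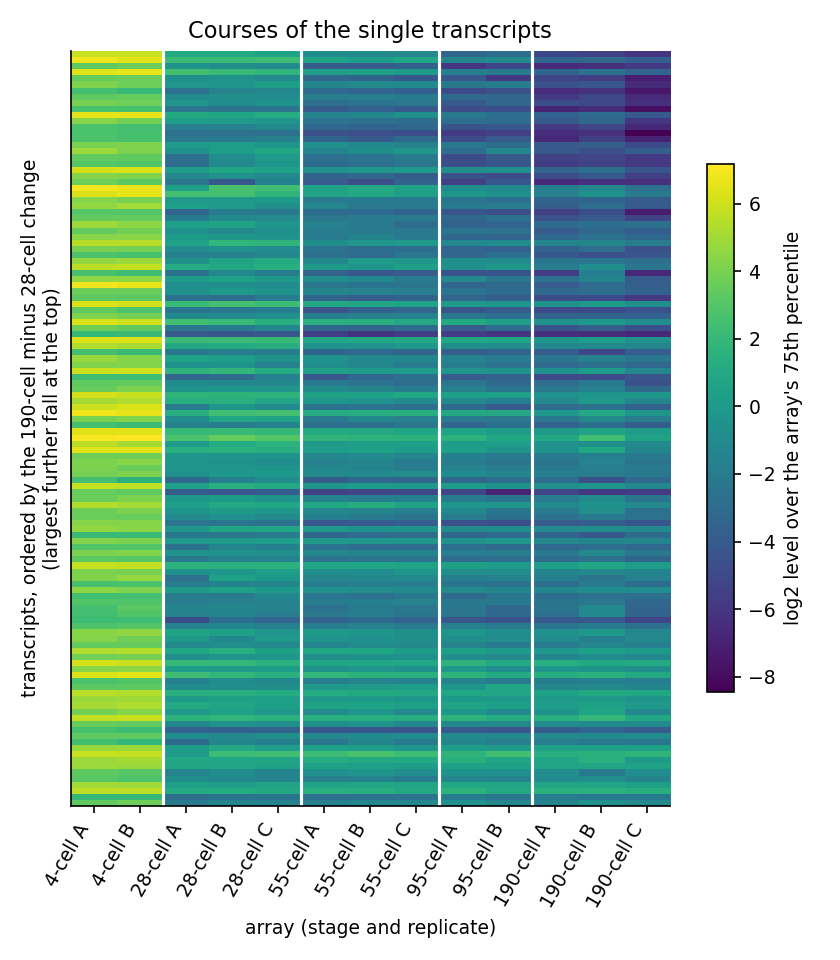
Log2 level over the array's 75th percentile (colour) of the 124 transcripts (rows) on 13 arrays (columns, stages divided by white lines), ordered by the 190-cell minus 28-cell change. The 19 transcripts at the top fell at least 16-fold further after 28 cells, and the 6 at the bottom were slightly higher at 190 cells.

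WBGene00031211 had the largest fall to 28 cells. Its levels were 6.88 and 6.63 at 4 cells, -0.68, -0.72 and -0.86 at 28 cells and -2.33, -2.38 and -2.31 at 55 cells. They were -3.36 and -3.08 at 95 cells and -3.95, -2.995 and -3.71 at 190 cells. No array of a later stage reached any 4-cell array, and the stages up to 95 cells did not overlap. At 28 cells 0.550% of the 4-cell level remained, and at 190 cells 0.0789%. Its A, B and C probes changed by -7.42, -7.57 and -7.52 between 4 and 28 cells, and all 3 were above background on all 12 arrays with flags. Between 55 and 95 cells, stages that the selection did not use, it changed by -0.88 log2 units (SE 0.30, limma adjusted p = 0.0538). That change missed the threshold, and it passed under 3 of 28 other settings.

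A member with levels of 7.04 and 7.17 at 4 cells had 2.66, 3.50 and 2.96 at 28 cells, 1.73, 1.63 and 1.56 at 55 cells, 1.64 and 0.94 at 95 cells and 0.99, 2.43 and 0.55 at 190 cells. It thus stayed above the 75th percentile of every array. Its 190-cell arrays spread most, with an SD of 0.98 (n = 3) against 0.091 at 4 cells (n = 2). Another member, at 6.81 at 4 cells, had 1 saturated spot there, so that its 4-cell level is a lower limit. No other member had a saturated spot on an array with flags.

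The comparison tested was that of the 95-cell with the 55-cell stage, because neither set of arrays entered the rule. It was not fully independent of the choice, since both stages lie between 28 and 190 cells, whose levels chose the members. The 190-cell condition left out 22 of the 146 genes that had fallen 16-fold by 28 cells. The direction of change can thus be set in part by the choice. The comparison asked whether transcripts that fell early were still falling later. All 124 members passed the filter on dim probes, which their brightness at 4 cells ensured. Every probe was above background on all arrays for 107 of them at 55 cells and for 88 at 95 cells. 16 of them (12.9%) were lower at 95 than at 55 cells and 0 were higher (limma, two-sided, Benjamini-Hochberg adjusted p under 0.05 over 13443 genes). The background was 12.4% of all tested genes called lower and 7.39% called higher. The share of members called lower was thus near that of all genes in this fit. At an unadjusted p under 0.05, 31 members were lower and 0 higher, against 20.0% and 12.0% of all tested genes.

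The count moved with single arrays and with the filter. Without 55-cell A it was 6 (4.84% of members, against 8.14% of all genes tested), and without 55-cell B it was 7 (5.65% against 10.5%). Without 95-cell A it was 9 (7.26% against 8.46%), and without 95-cell B 5 (4.03% against 6.4%). Spike-in scaling, without 28-cell C, called 0 members lower and 2.72% of all genes. On probes detected on all arrays, 15 of 114 members were called lower (13.2%, against 7.38% of genes), and with a common floor 17 of 124 (13.7% against 8.33%). Centring on the median gene gave 9 (7.26% against 9.51%), no filter on dim probes 6 (4.84% against 4.61%) and leaving out the 4 arrays with contradictory tags 4 (3.23% against 5.92%). The members' share thus lay below that of all genes in some settings and above it in others.

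Small shifts in a common direction were more frequent than calls. Over the probes kept for the test, the median member changed by -0.43 log2 units between 55 and 95 cells, against -0.19 for all tested genes. The level was lower at 95 cells in 104 of 124 members (83.9%), against 59.0% of all tested genes. This share and the comparisons of single arrays that follow average all probes of a gene. In 62 members (50.0%) both 95-cell arrays lay below all 3 55-cell arrays, where the background was 23.9%. In 4 members they lay above, where it was 18.9%. Any constant added to an array moves all genes alike, so members were also set against the median tested gene: 89 members lay below its change. This number was between 80 and 103 over 29 settings. For 92 members every probe was lower at 95 cells and for 8 every probe was higher. No share of all tested genes was computed for these probe counts, so they have no background.

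Other genes bright at 4 cells did not shift this way as a group, which is given beside the members without a test. They were matched to the members by the 4-cell threshold alone. At 55 cells the median level of members was -1.39, and genes of a like level at that stage were not set beside them. Of the other 2784 genes with a 4-cell level of at least 2, 5.64% were called lower and 3.27% higher, and their median change was 0.0026. Another 278 genes, a subset of these, had fallen 16-fold by 190 cells but not by 28 cells. Of them 19.8% were called lower and 0.360% higher, with a median change of -0.53. By the choice, every gene of this set was lower at 190 than at 28 cells, an interval that holds both stages compared here. Its shift was thus set in part by the choice. The rule for members required no fall after 28 cells, but it left out genes less than 16-fold down at 190 cells. The members' shift can thus be set in part by the choice too. At 28 cells the 278 genes had fallen by a median of 3.24 log2 units, and 199 of them were above the array's 75th percentile. Their median change from 28 to 55 cells was -1.43, against -1.02 in the rapidly falling transcripts. The 28-cell level itself divided both sets, so this difference was set in part by the choice and was not tested.

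**Figure D4:**
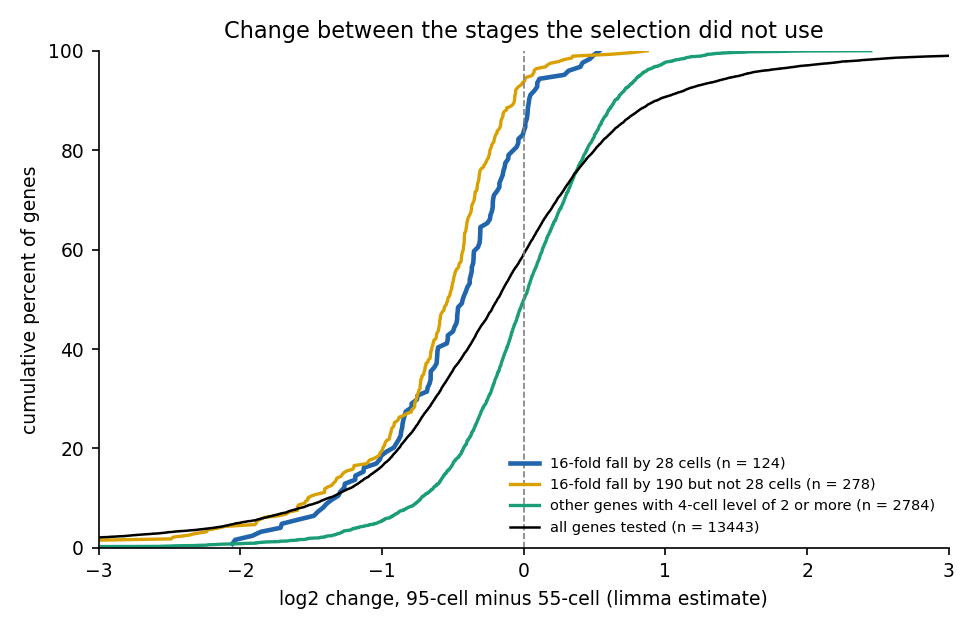
Cumulative percentage of genes (y axis) by log2 change, 95-cell minus 55-cell (x axis, limma estimates), for the 124 rapidly falling transcripts, 278 later falling ones, 2784 other genes bright at 4 cells (which include the later falling ones) and all 13443 tested genes. The curve of the 124 crosses 50% at -0.43, that of the later falling genes at -0.53 and that of the other bright genes at 0.0026. The later falling genes were chosen on a fall in an interval that holds both stages, so their curve was set in part by the choice.

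The arrays had been scanned on 2 dates. 9 arrays belonged to the first date and 3 to the second, and the date of 28-cell C was not used. Within the first date, with 1 array of 95 and 2 of 55 cells, the members' median change was -0.43, and 92 were lower (74.2%, against 47.7% of tested genes). Within the second date, with 1 array of each stage, it was -0.51, and 104 were lower (83.9% against 63.7%). The median tested gene changed by 0.039 and -0.25 within these dates. These within-date values average all probes of a gene, also dim ones. Over the probes kept for the test, the median tested gene changed by -0.097 within the first date and the median member by -0.42. In a fit blocked on scan date, which left out 28-cell C, 18 members (14.5%) were called lower, against 14.6% of tested genes. Within the first date 9 (7.26%) were, against 8.32%. Neither fit called a member higher.

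The 16 called members fell by between 0.90 and 2.06 log2 units, with a median of 1.40. Their 4-cell levels ran from 2.30 to 6.65. In 15 of them the 55-cell mean was below the 28-cell mean, as in 114 of all 124 members. In 14 the 190-cell mean was below the 95-cell mean, as in 100 of all 124. At 190 cells the median of the called members was 0.209% of the 4-cell level, against 1.47% in the 108 members not called. Dividing members by an earlier fall sets this difference in part, and it was not tested. For 7 of the 16, every probe was above background on every 55- and 95-cell array. Values of the others include signals near background, where the size of a fall is less certain.

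WBGene00030236 had the largest called fall between these stages. Its levels were -4.83 and -4.07 at 95 cells, against -2.74, -2.49 and -1.95 at 55 cells, and the groups did not overlap. The log2 change was -2.06 (SE 0.62, limma adjusted p = 0.0334). Over the other settings it ran from -2.44 to -0.84, and the smallest fall was that with a common floor. The call was lost under 7 of 15 alternatives and with 5 of 13 arrays left out, with adjusted p between 0.00094 and 0.282. Only its B probe was above background on all 12 arrays with flags. Between 4 and 28 cells that probe changed by -3.72 log2 units, short of a 16-fold fall. The gene's 28-cell arrays were at -2.74, -0.79 and 0.019, an SD of 1.42, so that its 28-cell mean is poorly determined.

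The member with the next largest called fall was measured more evenly. It had -1.69 and -1.95 at 95 cells, against 0.22, 0.40 and 0.037 at 55 cells. Its change was -2.04 log2 units (SE 0.31, limma adjusted p = 0.00062), and the call was kept in 27 of 28 other settings. The exception was spike-in scaling without 28-cell C (adjusted p = 0.169). Mean levels of this transcript were 6.52 and 2.12 in the first 2 stages, 0.22 at the 55-cell stage, -1.82 at the 95-cell stage and -3.13 at the end. It declined at each step by more than the SD of either stage's arrays, which was at most 0.46.

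**Figure D5:**
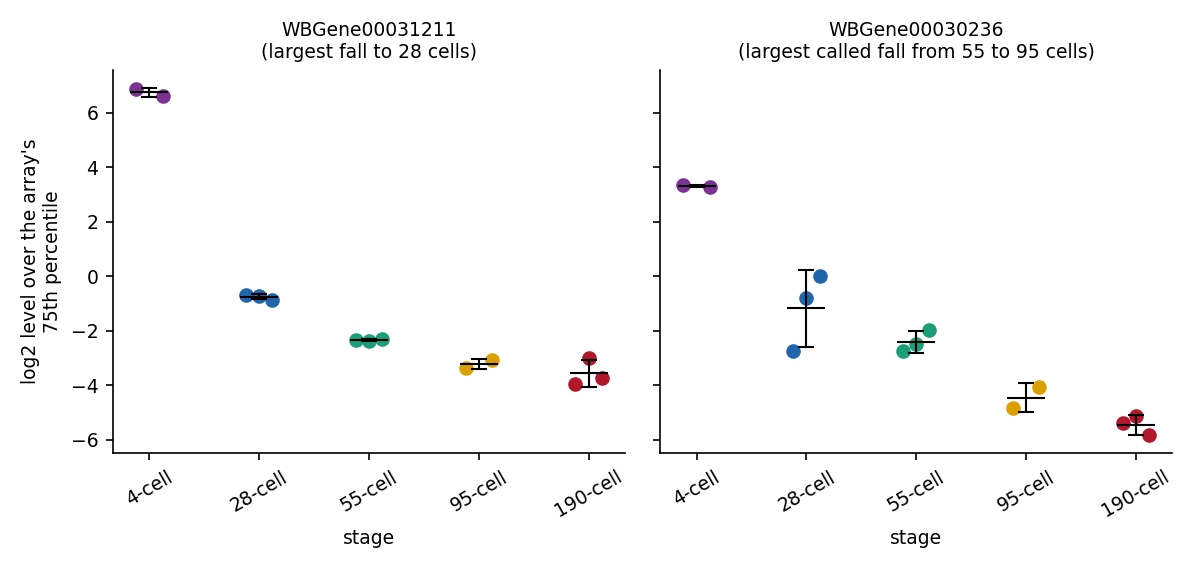
Log2 level over the array's 75th percentile (y axis) of WBGene00031211 and WBGene00030236 by stage (x axis); points are single arrays, the black dash is the mean and the bar 1 SD (n = 2 or 3 arrays). WBGene00031211 stands at 6.75 at 4 cells and at -0.75 at 28 cells, and WBGene00030236 spreads by an SD of 1.42 at 28 cells and falls to -4.45 at 95 cells, against -2.39 at 55 cells.

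Each member was measured by several probes, which share the sample but not the sequence. 72 members had 2 probes, 51 had 3 and 1 had 5. Members were chosen on the mean fall of these same probes, so the counts of falling probes are a description without a test. Of their 302 probes, 261 were at least 16-fold lower at 28 than at 4 cells, and the smallest fall was 2.95 log2 units. In 84 members every probe had fallen 16-fold by itself. The probes of a member typically differed little: the median range of their changes was 0.33 log2 units. In 19 members it exceeded 1, and the largest range was 3.84.

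The size of the fall depended on scaling. At 28 cells the median log2 change of members was -4.39 over the kept probes, -3.79 with spike-in scaling (without 28-cell C) and -3.19 with scaling on detected probes. The median tested gene changed by -0.18, 0.51 and 1.02 at 28 cells under these scalings. Spread between arrays of a stage was small beside these falls: the median SD of a member was 0.13 at 4 cells (n = 2), 0.29 at 28 cells (n = 3) and 0.41 at 190 cells (n = 3). The RNA was amplified with a kit that primes on the poly(A) tail, so that loss of a message and shortening of its tail cannot be told apart.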

How the data were processed

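Embryo RNA was hybridised to Agilent 44k arrays. The deposited intensity is Agilent Feature Extraction's processed signal (version 9.5.3.1, per the file headers), with background and spatial trend subtracted and no scaling between arrays. Array 75th percentiles were 234.8 to 546.6. For 28-cell C the deposited scanner file repeated that of 190-cell C, so series-table intensity was used for all 13 arrays, equal to the scanner output on the other 12 (relative tolerance 1e-06). The authors' other deposited columns, spot flags (above background, saturated, outlier), came from those 12. There were 0 columns of other series.

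Stages follow the titles. On 4 arrays (28-cell B, 55-cell A, 95-cell A, 190-cell B) the stage tag read 4-cell, against the title. Per the labels, replicates were biological.

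The rule used all 42034 gene probes. For the test, 207 probes with an outlier flag were left out, and 24781 were kept that passed the scanner's background test on all arrays of some stage (13443 genes). limma 3.58.1 in R 4.3.3 was fitted to log2 values of all 13 arrays and tested on simulated data. Precision is limited by the small number of arrays. The members, lists and comparisons were chosen with earlier results of these data known. The gene lists by symbol could not be used, since identifiers had no symbols. The naming rule listed the members with the largest fall to 28 cells and the largest called fall from 55 to 95 cells, and with no symbols these 2 are named. The replicate letters were not taken as pairs, since the labels tie them to no shared batch. Same-letter deviations correlated over 0.1 in 10 of 23 pairs of arrays (range -0.50 to 0.53). These correlations cannot decide whether letters mark pairs. Arrays of different letters were not compared, and in stages with 2 arrays the deviations mirror each other. All 3 pairs of C arrays were among the 10, and so were the 28-, 55- and 95-cell A arrays with each other.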

Additional observations from a re-analysis of the deposited data

How the results depend on the processing

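The number of members under the rule was within 1.5 times of 124 under 7 of 11 alternatives. It was 16 with scaling on detected probes, 236 with centring on the median gene, 42 with spike-in scaling and 53 with normexp (both without 28-cell C), and 113 to 132 with 1 array left out. Without 28-cell C it was 122, of which 115 were members. A similar count could hold other genes: the brightest probe alone gave 124, of which 90 were members. The A probe alone gave 144, of which 106 were members. The 16 members called lower at 95 than at 55 cells became 0 with spike-in scaling (2.72% of all tested genes), 9 with centring (7.26% of members, against 9.51% of genes) and 6 with no filter on dim probes (4.84% against 4.61%). They were 4 without the 4 arrays with contradictory tags (3.23% against 5.92%) and 9 within the first scan date (7.26% against 8.32%). They were 5 to 23 with 1 array left out and 21 with the replicate block (16.9% against 15.9%). No setting called a member higher. The median change of members, -0.43, was -0.21 with spike-in scaling and -0.21 with centring, between -0.54 and -0.33 under the other alternatives and between -0.52 and -0.38 with 1 array left out. The cause of these differences was not tested. The series table held no control spots, so that scaling on its every row was the setting reported. Normexp used the median spot signal. Signals near background limit the 190-cell values, where 86 of 124 members had every probe above background.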
